A study of Mus musculus with 8 samples.

Results

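Detoxification enzymes outside the cytochrome P450 group were compared in the epididymal fat of mice, a white adipose depot, between Rev-erb alpha knockout-labelled and wild-type males. The members were all genes with an array row of exactly 1 platform gene symbol that belonged by name to the carboxylesterases (Ces), aldehyde dehydrogenases (Aldh), alcohol dehydrogenases (Adh), flavin monooxygenases (Fmo), sulfotransferases (Sult) or cytosolic, mitochondrial and peroxisomal glutathione S-transferases (classes Gsta, Gstk, Gstm, Gsto, Gstp, Gstt and Gstz), together with the sulfurtransferases Tst and Mpst and the epoxide hydrolases Ephx1 and Ephx2. This gave 86 genes of the 19310 genes with such a row. Where a gene had a second row, the row with the higher mean over the 8 arrays was used. By family there were 21 Aldh, 19 Gst, 15 Ces, 15 Sult, 7 Adh and 5 Fmo genes beside the 4 named singly.

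Rev-erb alpha, encoded by Nr1d1, is a nuclear receptor that represses transcription within the circadian clock. The comparison set 4 arrays of tissue labelled Rev-erb alpha KO against 4 arrays labelled WT. Mice of both groups were C57BL/6 males aged 12 to 15 weeks, kept on standard chow in 12 h of light and 12 h of dark, and tissue was taken at Zeitgeber time 10, that is 10 h after lights on. How the knockout allele was made and in which cells it acts is not given in the sources used here, nor whether each array stands for a separate mouse, so the p-values refer to the spread among these arrays, which may be technical.

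Detoxification enzymes make reactive or fat-soluble compounds easier to clear. A first set of enzymes exposes or adds a polar group: carboxylesterases split esters and amides, flavin monooxygenases oxidise nitrogen and sulfur atoms, epoxide hydrolases open epoxides into diols, and the alcohol and aldehyde dehydrogenases pass alcohols on to aldehydes and acids. A further set conjugates: glutathione S-transferases add glutathione and sulfotransferases add sulfate. In fat several of these enzymes also act on the tissue's own lipids, retinoids and steroids.

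Expression was read as log2 values of a whole-transcript array, on which levels of different rows cannot be set against each other, so values are compared between arrays for one gene at a time. Array medians were 5.896 to 5.914 log2 in the knockout-labelled arrays and 5.915 to 5.951 log2 in the wild-type arrays. The row of the targeted gene Nr1d1 read 9.57, 9.28, 8.90 and 8.80 log2 in the knockout-labelled arrays, against 9.47, 9.11, 9.18 and 9.83 log2 in the wild-type arrays. The difference of −0.26 log2 (SE 0.19) did not pass the limma test (adjusted p = 0.479), and the part of the transcript that the row reads is not given in the sources used here, so the row does not settle the genotype labels. The summed linear level of 11 measured adipocyte markers was 52320 to 54300 in the knockout-labelled arrays and 50310 to 54270 in wild type, while 12 of 13 measured epididymis and testis markers were among the dimmest tertile of rows.

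Of the 86 genes, 15 changed (17.4%), 6 higher and 9 lower in the knockout-labelled tissue, at a limma adjusted p under 0.05. Over all 20748 rows tested the same test called 7.4%, with 3.81% higher and 3.59% lower. The genes that rose were the mu-class glutathione S-transferases Gstm1, Gstm2, Gstm3 and Gstm4, the microsomal epoxide hydrolase Ephx1 and the flavin monooxygenase Fmo2. Those that fell were the sulfurtransferases Tst and Mpst, the carboxylesterase Ces1f, the soluble epoxide hydrolase Ephx2, the flavin monooxygenase Fmo1, the theta-class glutathione S-transferase Gstt3 and the aldehyde dehydrogenases Aldh3b2, Aldh7a1 and Aldh9a1. Log2 fold changes, given throughout as knockout-labelled minus wild type, ran from −1.42 to 0.56, with a median of −0.04 over the members, against −0.01 over all rows tested. Without knockout-labelled array 4 the number of lowered members was 5 in place of 9.

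Of the 86 rows, 33 were among the dimmest tertile of rows tested, below a mean of 4.996 log2, and 0 of these were called, beside 0.839% of all such rows (limma; their smallest adjusted p was 0.129). Above that level 15 of 53 members were called, 28.3%, beside 10.7% of all rows above it. The 33 dim rows included 12 of 15 sulfotransferases, 9 of 15 carboxylesterases and 5 of 7 alcohol dehydrogenases. The 4 arrays of one group lay entirely above or below the other group's for 19 members (22.1%), 7 higher and 12 lower in the knockout-labelled tissue, against 15.3% of all rows, with 7.18% higher and 8.16% lower. A change of at least 1.5-fold with an adjusted p under 0.05 was found for 3 members, all lower, and for 1.57% of all rows.

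In whole tissue, fewer cells of a type and less RNA per cell cannot be told apart. Of 12 measured progenitor and fibroblast markers 6 were higher and 0 lower, with summed linear levels of 10010 to 11080 in the knockout-labelled arrays and 8934 to 10300 in wild type. Endothelial markers had 3 increases among 11 and sums of 4580 to 5119 in the knockout-labelled arrays, against 3973 to 4374 in wild type. Smooth muscle and pericyte markers had 2 increases and 1 decrease among 8 and sums of 2898 to 4173 in the knockout-labelled arrays, against 2123 to 2521 in wild type. The median level over the list gave another picture: it was 8.72 to 8.84 log2 in the knockout-labelled arrays and 8.003 to 8.51 in wild type for progenitor markers, without overlap, but 8.16 to 8.52 and 7.99 to 8.28 for endothelial markers, and 6.97 to 7.29 and 7.09 to 7.26 for smooth muscle and pericyte markers, where 4 of 8 log2 fold changes were below 0. The 2 raised genes of that last list were Acta2 and Rgs5, its brightest rows, which weigh most in its sum. In the progenitor list the brightest row, Dcn, did not pass (−0.14, limma adjusted p = 0.233). Macrophage markers had 1 decrease among 12, in Cd14, with 2 of the 12 log2 fold changes below 0, a median of 0.11, and sums of 4258 to 5265 in the knockout-labelled arrays and 3430 to 4889 in wild type. Mesothelial markers had 2 increases among 10, in Msln and Efemp1, with 7 of the 10 log2 fold changes below 0, a median of −0.19, and sums of 5429 to 5918 in the knockout-labelled arrays and 5023 to 5933 in wild type. Adipocyte markers had 2 increases, in Lep and Aqp7, and 0 decreases among 11, with 7 of the 11 log2 fold changes below 0 and a median of −0.04. Called were 50% of progenitor and fibroblast, 37.5% of smooth muscle and pericyte and 27.3% of endothelial markers. Shares of 20% for mesothelial and 18.2% for adipocyte markers rested on 2 genes each, and 8.33% of macrophage markers on 1. These compare with 7.4% of all rows tested and 10.7% of those above the dimmest tertile, where all these marker rows lay. Of 9 measured hepatocyte markers, 0 changed (limma; smallest adjusted p 0.284). The part of these levels in the changes of the detoxification genes was not tested.

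**Figure D1:**
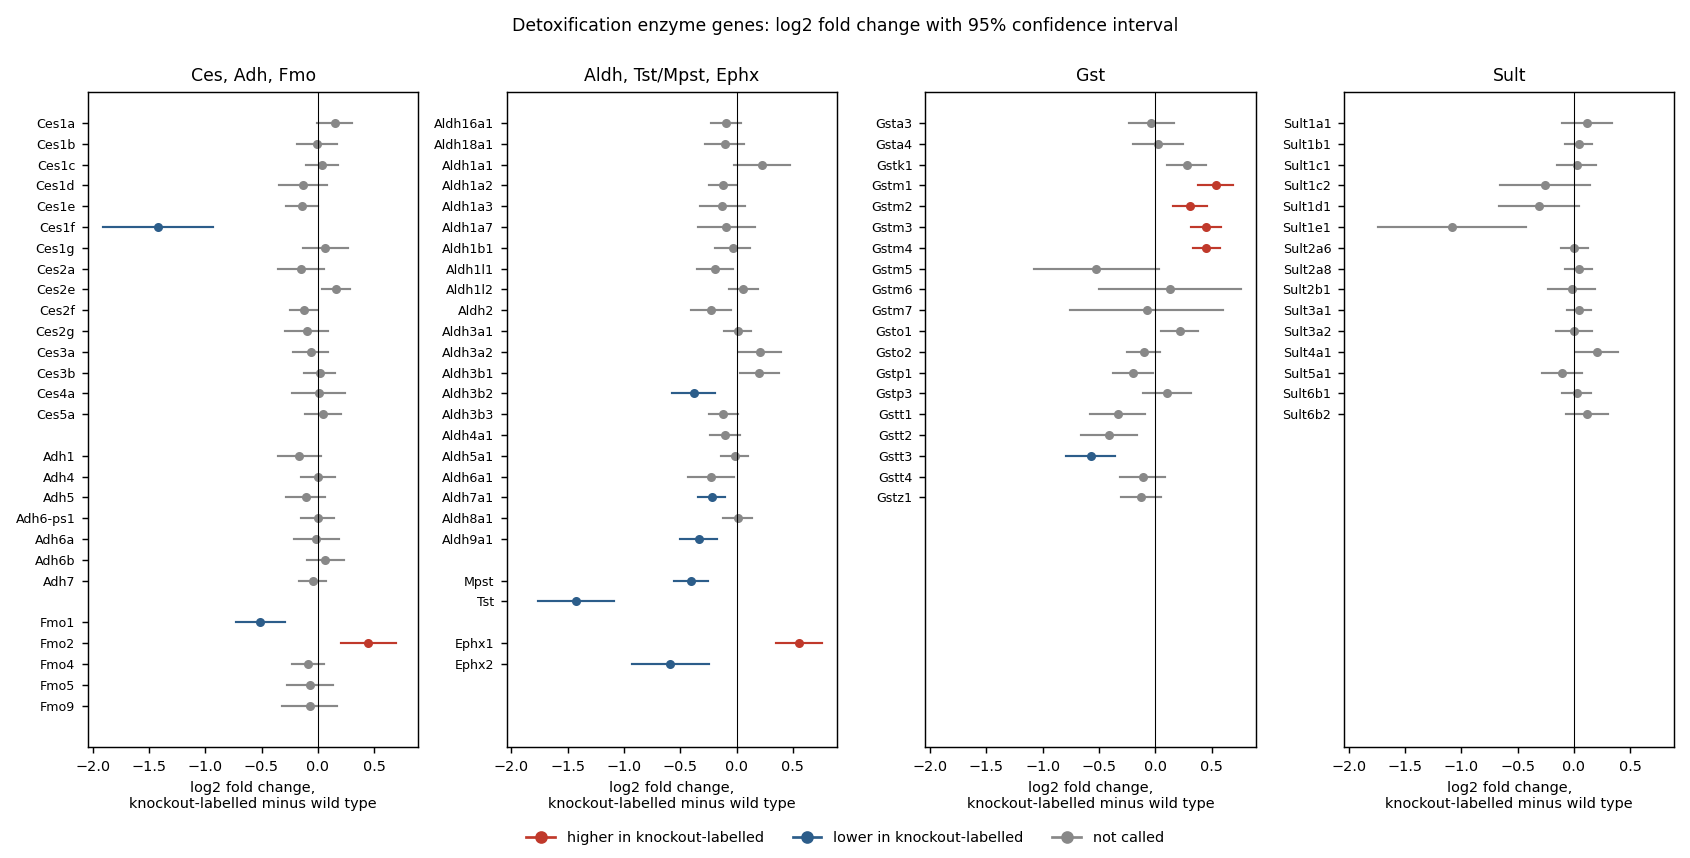
Log2 fold change (x axis, knockout-labelled minus wild type) of each of the 86 genes, 1 per line, with the 95% confidence interval from limma as a bar; red marks genes called higher, blue genes called lower and grey genes not called. Tst and Ces1f lie farthest from 0, both at −1.42, and the red points lie between 0.31 and 0.56.

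Promoters are shown for called members held in the RefSeq promoter table, which covered 69 of the 86 genes and 9 of the 15 called ones, 6 higher and 3 lower. Tst and Ces1f, the largest decreases, have no promoter there, nor do Ephx2, Fmo1, Aldh3b2 and Aldh7a1. Each is the stretch of GRCm38.p6 running 250 bases before to 50 bases after the first listed transcription start, written in the direction of the gene. Shown are all 3 lowered genes in that table and the 2 largest increases. Capitals mark matches on either strand to any of 6 motifs. The core bound by many nuclear receptors was searched as AGGTCA. The longer form used by ROR and Rev-erb receptors, which overlaps that core, was searched as TAGGTCA. The D-box was searched as TTATGNAA and the E-box as CACGTG. The antioxidant response element was searched as TGACNNNGC and the core of the AHR element as GCGTG.
Gstt3 promoter, chr10:75781373-75781672, - strand: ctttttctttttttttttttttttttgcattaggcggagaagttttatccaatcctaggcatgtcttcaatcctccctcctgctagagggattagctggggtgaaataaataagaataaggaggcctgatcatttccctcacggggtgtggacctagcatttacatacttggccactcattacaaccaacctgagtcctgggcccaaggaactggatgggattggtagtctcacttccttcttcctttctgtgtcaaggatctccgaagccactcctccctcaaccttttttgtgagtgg
Mpst promoter, chr15:78406462-78406761, + strand: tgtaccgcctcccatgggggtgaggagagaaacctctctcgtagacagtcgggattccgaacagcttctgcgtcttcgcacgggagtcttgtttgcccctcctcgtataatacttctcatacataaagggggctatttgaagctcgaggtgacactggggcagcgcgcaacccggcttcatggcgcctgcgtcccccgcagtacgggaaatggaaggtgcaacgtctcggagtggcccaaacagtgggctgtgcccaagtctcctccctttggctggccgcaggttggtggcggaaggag
Aldh9a1 promoter, chr1:167349741-167350040, + strand: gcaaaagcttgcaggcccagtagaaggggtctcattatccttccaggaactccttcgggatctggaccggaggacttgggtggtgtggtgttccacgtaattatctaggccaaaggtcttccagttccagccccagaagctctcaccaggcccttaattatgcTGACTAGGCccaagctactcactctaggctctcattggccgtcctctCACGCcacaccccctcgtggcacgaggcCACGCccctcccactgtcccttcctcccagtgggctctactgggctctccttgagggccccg
Ephx1 promoter, chr1:181017520-181017819, - strand: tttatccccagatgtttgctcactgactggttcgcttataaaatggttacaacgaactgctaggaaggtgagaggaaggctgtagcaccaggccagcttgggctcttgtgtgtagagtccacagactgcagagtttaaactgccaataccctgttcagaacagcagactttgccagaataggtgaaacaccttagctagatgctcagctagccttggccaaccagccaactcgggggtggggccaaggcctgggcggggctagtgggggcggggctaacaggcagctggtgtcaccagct
Gstm1 promoter, chr3:108017924-108018223, - strand: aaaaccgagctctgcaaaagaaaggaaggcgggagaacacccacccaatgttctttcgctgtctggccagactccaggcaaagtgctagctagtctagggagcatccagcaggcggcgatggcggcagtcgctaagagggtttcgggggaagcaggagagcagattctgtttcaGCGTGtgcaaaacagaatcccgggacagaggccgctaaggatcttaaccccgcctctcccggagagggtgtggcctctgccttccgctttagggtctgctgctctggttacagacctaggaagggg
Among these sequences Aldh9a1 held 1 match to TGACNNNGC and 2 to GCGTG, and Gstm1 held 1 to GCGTG. Gstt3, Mpst and Ephx1 held no match to these letters in this window. TGACNNNGC was in 5 of 69 member promoters (7.25%), against 12.5% of all 27025 promoters of the table, and GCGTG, the AHR core, in 14 (20.3%), against 32.5%. The receptor core AGGTCA was in 9 of 69 member promoters (13%), none of them of the 9 called genes, against 16% of all promoters. TAGGTCA was in 3 of 69 member promoters (4.35%), against 2.64% of all promoters, and the E-box letters in 3 (4.35%), against 7.24%. Neither was in the 9 called genes searched. The D-box letters were in 8 of 69 member promoters (11.6%), against 3.52% of all promoters, in none of the 9 called genes searched. At such shares 9 promoters are too few to read an absence, and the other called genes were not searched. Among these 8, Ces1a, Ces1b, Ces1c, Ces1e and Ces1g are neighbouring copies of one gene family and share ancestry.

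Both sulfurtransferases fell. Tst encodes rhodanese, a mitochondrial enzyme that moves sulfur from thiosulfate to cyanide and takes part in the disposal of hydrogen sulfide. Its row read 7.01, 6.87, 6.31 and 6.32 log2 in the knockout-labelled arrays, against 7.97, 7.99, 8.03 and 8.22 log2 in the wild-type arrays. The groups did not overlap, and knockout-labelled arrays 3 and 4 were lower than arrays 1 and 2. The level was 37.3% of wild type (log2 fold change −1.42, SE 0.15, limma adjusted p = 0.000513), the smallest p of the 86 genes. Mpst encodes a paralogous enzyme that transfers sulfur from mercaptopyruvate and releases hydrogen sulfide. It read 6.90, 6.84, 6.79 and 6.68 log2 in the knockout-labelled arrays, against 7.15, 7.11, 7.23 and 7.33 log2 in wild type. Here too every knockout-labelled array was below every wild-type array, with less spread than for Tst, and the level was 75.6% of wild type (−0.40, SE 0.068, adjusted p = 0.00609). The Mpst call was lost with knockout-labelled arrays 1 and 2 only (−0.34, 0.0573; 0.00438 to 0.0573 over 18 alternative fits). Tst and Mpst are adjacent genes. On either side of the pair, Tex33 (log2 fold change 0.06, adjusted p = 0.619) and Kctd17 (0.03, 0.827) did not pass, while Csf2rb, a cytokine receptor gene farther out, was lower (−0.41, 0.0270).

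Other genes of sulfide and sulfite metabolism moved in both directions. Of 11 measured genes of that list 3 were higher and 1 lower (36.4% called, against 7.4% of all rows tested and 10.7% above the dimmest tertile). Cbs and Cth, whose enzymes make cystathionine from homocysteine and cysteine from cystathionine and can release hydrogen sulfide, had log2 fold changes of 0.37 (SE 0.069, limma adjusted p = 0.0104) and 0.46 (SE 0.084, 0.00958). Tstd3, a gene of a rhodanese-like domain protein, was higher by 0.93 (SE 0.071, 8.95e-05). Sqor, which encodes the mitochondrial quinone reductase that oxidises sulfide, had a log2 fold change of −0.50 (SE 0.13, 0.0452), a call lost in 9 of 18 alternative fits, among them those without knockout-labelled array 3 or 4 or wild-type array 2, 3 or 4 (0.00558 to 0.245 over the 18). The other 7 did not pass.

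Of 15 carboxylesterase genes, Ces1f alone was called (6.67%, against 7.4% of all rows tested). Ces1f belongs to the Ces1 subfamily, whose enzymes hydrolyse esters of drugs and of cellular lipids. It read 8.91, 8.48, 7.85 and 8.01 log2 in the knockout-labelled arrays, against 9.89, 9.51, 9.46 and 10.07 log2 in wild type. All knockout-labelled arrays were below all wild-type arrays, at 37.3% of the wild-type level (log2 fold change −1.42, SE 0.22, limma adjusted p = 0.00411). Ces1d, which encodes the triacylglycerol hydrolase of adipocytes and liver and lies in the same gene cluster, read 11.71, 11.67, 11.32 and 11.42 log2 in the knockout-labelled arrays, against 11.68, 11.62, 11.52 and 11.82 log2 in wild type. These groups overlapped, and the 95% interval of the log2 difference was −0.35 to 0.08 (adjusted p = 0.482). Ces1f and Ces1d are similar in sequence, and which bases each row reads is not given in the sources used here. Beyond these, Ces2e (0.16, limma adjusted p = 0.129) and Ces2f (−0.12, 0.209) had the smallest p of the uncalled genes. Both rows were among the dimmest tertile. The log2 fold changes of all 14 uncalled genes lay between −0.15 and 0.16.

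The epoxide hydrolases moved in opposite directions. Ephx1, the microsomal enzyme that acts on epoxides of foreign compounds, read 8.75, 8.80, 8.62 and 8.86 log2 in the knockout-labelled arrays, against 8.45, 8.21, 8.02 and 8.13 log2 in wild type. The groups were apart, with a 1.47-fold higher level in the knockout-labelled tissue (log2 fold change 0.56, SE 0.091, limma adjusted p = 0.00563). Ephx2, the soluble enzyme that turns epoxides of polyunsaturated fatty acids into diols, read 9.11, 8.96, 8.46 and 8.46 log2 in the knockout-labelled arrays, against 9.26, 9.24, 9.22 and 9.63 log2 in wild type. All knockout-labelled arrays lay below wild type, arrays 3 and 4 by more than arrays 1 and 2. The level was 66.4% of wild type (−0.59, SE 0.15, adjusted p = 0.0448). This call was lost in 11 of 18 alternative fits (adjusted p 0.00327 to 0.243 over the 18), and of those that leave out 1 array it held only without knockout-labelled array 1 or 2 (without each of the others 0.0724 to 0.119).

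Fmo1 and Fmo2, neighbouring genes of flavin monooxygenases, likewise went opposite ways. Fmo1 read 10.15, 10.41, 9.96 and 10.02 log2 in the knockout-labelled arrays, against 10.48, 10.72, 10.74 and 10.64 log2 in wild type. The groups did not overlap and the level was 70.3% of wild type (log2 fold change −0.51, SE 0.097, limma adjusted p = 0.0112). The call was lost with knockout-labelled arrays 1 and 2 only (−0.37, 0.0960; 0.00268 to 0.0960 over 18 alternative fits). Fmo2 read 9.27, 9.42, 9.03 and 9.22 log2 in the knockout-labelled arrays, against 8.81, 9.04, 8.78 and 8.52 log2 in wild type. Knockout-labelled array 3 lay just under wild-type array 2, and the other arrays of the groups were apart. The level was 1.36-fold higher (0.45, SE 0.11, adjusted p = 0.0349), a call that held in 10 of 18 alternative fits and was lost without knockout-labelled array 1, 2 or 4 or wild-type array 1, 3 or 4 (adjusted p 0.0671 to 0.0833; 0.0211 to 0.164 over the 18). Fmo4 (−0.09, 0.494), Fmo5 (−0.07, 0.726) and Fmo9 (−0.07, 0.758) did not pass. For Fmo5 the sign turned without knockout-labelled array 3 (0.0075).

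Among 19 glutathione S-transferases 4 of 7 mu-class genes rose and the theta class held the only decrease that passed. Of the 19 genes 26.3% were called, against 7.4% of all rows tested and 10.7% above the dimmest tertile. Gstm1 had 11.39, 11.47, 11.39 and 11.37 log2 in the knockout-labelled arrays, against 11.03, 10.90, 10.71 and 10.83 log2 in wild type. Gstm4 had 9.10, 8.996, 8.94 and 8.91 log2 in the knockout-labelled arrays, against 8.54, 8.57, 8.52 and 8.50 log2 in wild type. For both genes the knockout-labelled arrays were above every wild-type array by more than the spread within either group. Gstm3 had 8.93, 8.88, 8.85 and 8.82 log2 in the knockout-labelled arrays, against 8.54, 8.45, 8.31 and 8.38 log2 in wild type. Gstm2 had 9.88, 9.86, 9.82 and 9.71 log2 in the knockout-labelled arrays, against 9.62, 9.43, 9.39 and 9.59 log2 in wild type. These groups were apart too, for Gstm2 by the narrowest margin. The increases were 1.45-fold for Gstm1 (log2 fold change 0.54, SE 0.070, limma adjusted p = 0.00149), 1.37-fold for Gstm4 (0.45, SE 0.055, 0.00103), 1.37-fold for Gstm3 (0.45, SE 0.061, 0.00194) and 1.24-fold for Gstm2 (0.31, SE 0.068, 0.0206).

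The Gstm2 call was lost in 5 of 18 alternative fits, among them those without knockout-labelled array 2 or wild-type array 2 or 3 (adjusted p 0.0503 to 0.0609; 0.0133 to 0.107 over the 18). Mu-class genes are close paralogs, and whether a row also takes up transcript of a neighbour was not tested. No accession in the platform annotation was shared between rows of different members. A second, dimmer row of Gstm3 gave 0.19 log2 (limma adjusted p = 0.287) with overlapping groups. The Gstm3 call in the main fit therefore rests on the brighter row alone. Which bases either row reads is not given in the sources used here.

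The rest of the mu class did not pass and varied widely within wild type. The genes Gstm5, Gstm7 and Gstm6 lie side by side at one end of the cluster, next to the raised Gstm3, Gstm2, Gstm1 and Gstm4. Gstm5 read 7.85, 7.71, 7.43 and 7.45 log2 in the knockout-labelled arrays, against 8.99, 8.16, 7.62 and 7.76 log2 in wild type. Gstm6 read 5.51, 5.27, 5.39 and 5.16 log2 in the knockout-labelled arrays, against 6.21, 5.25, 4.58 and 4.79 log2 in wild type. In wild-type array 1 both were higher than in any other array. Gstm7, chosen after its values were seen, read 7.64, 7.55, 7.58 and 7.47 log2 in the knockout-labelled arrays, against 8.62, 7.94, 6.89 and 7.10 log2 in wild type. Their log2 fold changes were −0.52 (SE 0.25, limma adjusted p = 0.256), 0.13 (SE 0.28, 0.850) and −0.07 (SE 0.31, 0.920) for Gstm5, Gstm6 and Gstm7. Without wild-type array 1 the value of Gstm5 was −0.24 and that of Gstm6 0.46, and Gstm7 turned positive (0.25); none of the 3 passed. Gstm7 was also positive without wild-type array 2 (0.03). The summed level of epididymis and testis markers was 225.5 to 235.6 in the knockout-labelled arrays and 223.2 to 232.5 in wild type. In wild-type array 1 the sum was 232.4, below those of wild-type array 3 (232.5) and knockout-labelled array 2 (235.6). The list's median level was 3.91 log2 in wild-type array 1, the highest of the 8 arrays, against 3.54 to 3.74 in the others. That 3.91 is the reading of the gene Adam7 itself, so the median is no separate sign beside it. Adam7, an epididymis gene, read 3.45, 3.24, 3.23 and 3.38 log2 in the knockout-labelled arrays, against 3.91, 3.59, 3.39 and 3.27 log2 in wild type. Adam7 was a dim row, and of the other epididymis and testis markers only Rnase9 and Lcn9 were also highest in wild-type array 1. The keratin gene Krt8 of the mesothelial list was chosen after its values were seen. It too was highest in wild-type array 1, at 8.04 log2, against 6.78 to 7.25 in the others. Of the mesothelial list, Krt18, Krt19, Lrrn4, Upk1b, Upk3b and Wt1 were also highest there, and Msln, Efemp1 and Gpm6a were not. The part of these levels in the spread of the mu-class genes was not tested.

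**Figure D2:**
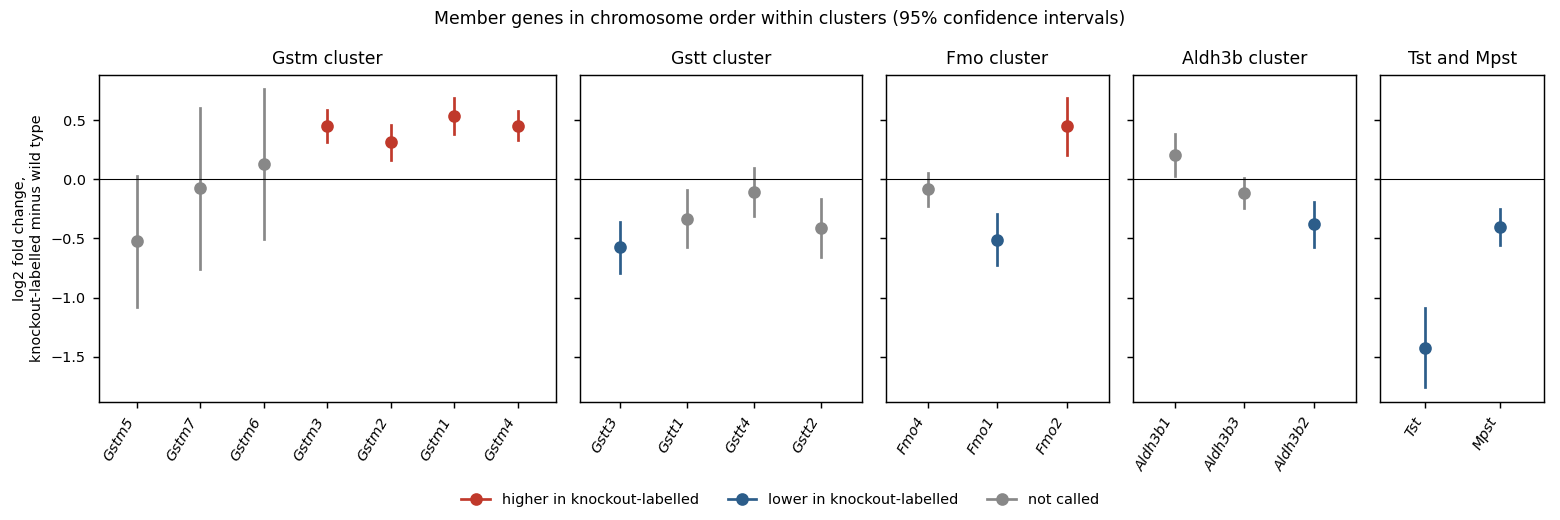
Log2 fold change (y axis, knockout-labelled minus wild type) with its 95% confidence interval for member genes in their order along the chromosome, in 5 gene clusters; red marks genes called higher, blue genes called lower and grey genes not called. Gstm3, Gstm2, Gstm1 and Gstm4 lie side by side at 0.31 to 0.54, and Fmo1 and Fmo2 lie on opposite sides of 0. The theta-class genes all lie below 0, with the interval of the dim row Gstt4 reaching above it.

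All 4 theta-class genes had log2 fold changes below 0, of which Gstt3 passed. Theta-class enzymes conjugate small halogenated compounds and similar substrates. Gstt3 read 7.16, 7.13, 6.71 and 7.09 log2 in the knockout-labelled arrays, against 7.60, 7.68, 7.62 and 7.49 log2 in wild type. The groups were apart, with knockout-labelled array 3 lowest, at 67.2% of the wild-type level (log2 fold change −0.57, SE 0.097, limma adjusted p = 0.00656). Gstt2 was at 7.24, 7.38, 6.995 and 6.91 log2 in the knockout-labelled arrays, against 7.53, 7.34, 7.56 and 7.74 log2 in wild type. Gstt1 was at 9.23, 9.34, 8.78 and 8.94 log2 in the knockout-labelled arrays, against 9.44, 9.41, 9.38 and 9.41 log2 in wild type. The groups overlapped for Gstt2, through wild-type array 2, and not for Gstt1. Neither passed, at −0.41 (SE 0.11, adjusted p = 0.0525) and −0.33 (SE 0.11, 0.0970). Gstt2 passed in 6 of 18 alternative fits, among them those without knockout-labelled array 2 (0.0248) or wild-type array 2 (0.0467) and with the dimmest tertile of rows left out (0.0382), with adjusted p 0.0115 to 0.313 over the 18. Gstt1 passed without knockout-labelled array 2 (0.0310), with adjusted p 0.00260 to 0.396 over the 18. Gstt4, a dim row whose groups overlapped, had a log2 fold change of −0.11 (0.540) with a 95% interval of −0.31 to 0.09.

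The other classes had no call among their 8 genes. Gstk1, a mitochondrial and peroxisomal enzyme that also aids the assembly of adiponectin, read 10.22, 10.16, 10.14 and 10.10 log2 in the knockout-labelled arrays, against 9.89, 9.93, 9.65 and 10.04 log2 in wild type. Its groups did not overlap, but the log2 fold change of 0.28 (SE 0.079, limma adjusted p = 0.0601) did not pass. It passed without wild-type array 4 (0.0418), with the dimmest tertile of rows left out (0.0425) and with trend and robust options (0.0442), with adjusted p 0.0418 to 0.202 over the 18 fits. Gsto1, an omega-class enzyme, was at 0.22 (0.108), Gsto2 at −0.10 (0.424), the pi-class genes Gstp1 at −0.20 (0.171) and Gstp3 at 0.10 (0.598), and Gstz1, which acts in tyrosine breakdown, at −0.12 (0.423). The alpha-class genes Gsta3 (−0.03, 0.876) and Gsta4 (0.02, 0.924), the second of which clears products of lipid peroxidation, had 95% intervals of −0.24 to 0.17 and −0.20 to 0.24 log2, and both changed sign when single arrays were left out (−0.11 to 0.02 and −0.06 to 0.09).

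Of 21 aldehyde dehydrogenase genes 3 fell, each by a small amount, and 0 rose (limma). That is 14.3% called, near the 7.4% of all rows tested and 10.7% above the dimmest tertile. Aldh9a1 oxidises the aldehyde on the path to carnitine. It read 8.63, 8.42, 8.44 and 8.32 log2 in the knockout-labelled arrays, against 8.70, 8.82, 8.74 and 8.91 log2 in wild type. Aldh3b2, one of the lipid-associated enzymes that oxidise long-chain aldehydes in mice, read 7.50, 7.43, 7.71 and 7.46 log2 in the knockout-labelled arrays, against 7.99, 7.86, 8.05 and 7.72 log2 in wild type. In both genes the closest arrays of the groups nearly met. Aldh7a1, which acts in lysine breakdown, read 8.74, 8.63, 8.66 and 8.73 log2 in the knockout-labelled arrays, against 8.84, 8.91, 8.99 and 8.90 log2 in wild type, again without overlap. Levels were 79.2%, 76.8% and 85.7% of wild type for Aldh9a1 (log2 fold change −0.34, SE 0.074, limma adjusted p = 0.0218), Aldh3b2 (−0.38, SE 0.086, 0.0244) and Aldh7a1 (−0.22, SE 0.054, 0.0336).

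None of these 3 calls was stable to leaving out arrays. That of Aldh9a1 was lost without knockout-labelled array 2, 3 or 4 or wild-type array 2 or 4 (adjusted p 0.05065 to 0.0651; 0.00997 to 0.156 over the 18 alternatives), and that of Aldh3b2 without knockout-labelled array 1, 2 or 4 or wild-type array 1, 2 or 3 (0.0510 to 0.0734; 0.0164 to 0.120 over the 18). The Aldh7a1 call was lost without knockout-labelled array 2, 3 or 4 or wild-type array 2, 3 or 4 (0.0629 to 0.0874) and with median centring (0.0591; 0.0223 to 0.132 over the 18).

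The log2 fold changes of the other 18 Aldh genes lay between −0.23 and 0.23. Aldh2, the mitochondrial acetaldehyde dehydrogenase, had no overlap between groups, with 10.41, 10.37, 10.08 and 10.13 log2 in the knockout-labelled arrays, against 10.45, 10.44, 10.50 and 10.53 log2 in wild type, yet did not pass (−0.23, SE 0.079, limma adjusted p = 0.116). Aldh2 passed with knockout-labelled arrays 3 and 4 only (−0.37, 0.00951) and was at −0.08 (0.537) with arrays 1 and 2 only. Aldh6a1, which acts in valine breakdown, was at −0.23 (0.185) and Aldh1l1, of folate metabolism, at −0.19 (0.158). Of the retinaldehyde-oxidising genes Aldh1a1, Aldh1a2 and Aldh1a3, 0 passed, with values of 0.23 (0.268), −0.12 (0.217) and −0.13 (0.472). None of 7 alcohol dehydrogenase genes passed (limma; smallest adjusted p 0.303). Adh1, which oxidises ethanol and retinol, had a 95% interval of −0.35 to 0.03 log2, and Adh5, the formaldehyde-clearing class, one of −0.28 to 0.07. Other genes of retinoid metabolism held 2 increases among 17 measured (11.8%), near the 7.4% called over all rows tested and 10.7% above the dimmest tertile. These were in the retinaldehyde reductase gene Dhrs3 (0.62, SE 0.073, limma adjusted p = 0.000887) and the retinol carrier gene Rbp4 (0.27, SE 0.067, 0.0353). The Rbp4 call was lost in 9 of 18 alternative fits, among them those without knockout-labelled array 1, 3 or 4 or wild-type array 2, 3 or 4 (0.0218 to 0.182 over the 18).

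**Figure D3:**
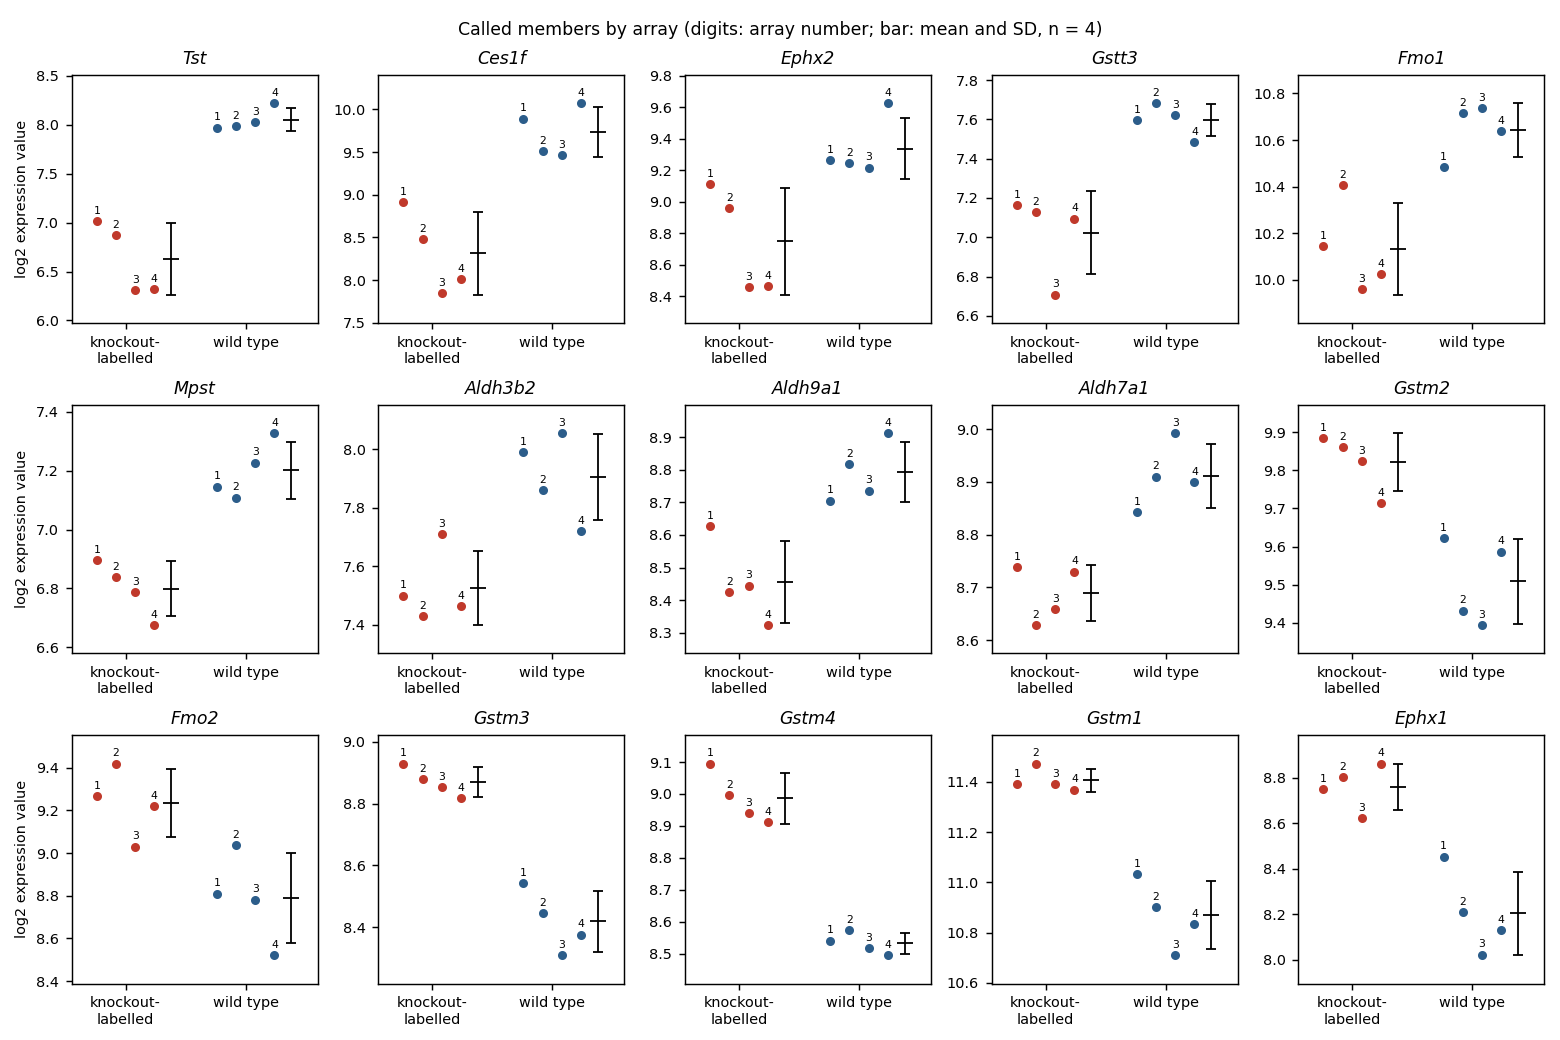
Log2 expression value (y axis) in every array for the 15 called genes, ordered from the largest decrease to the largest increase, with knockout-labelled arrays in red on the left and wild-type arrays in blue on the right of each panel; digits give the array number and the black bar the mean and SD (n = 4). The groups overlap for Fmo2 alone, and knockout-labelled arrays 3 and 4 lie lowest for Tst, Ces1f, Ephx2 and Fmo1.

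Among 15 sulfotransferases 0 passed (limma; Sult1e1 and Sult4a1 had unadjusted p of 0.00410 and 0.0362). Sult1e1 encodes the oestrogen sulfotransferase, which inactivates oestrogens by adding sulfate. It read 8.28, 8.76, 7.29 and 7.46 log2 in the knockout-labelled arrays, against 8.71, 9.51, 8.99 and 8.91 log2 in wild type. Knockout-labelled array 2 lay just above wild-type array 1, and arrays 3 and 4 were more than 1 log2 below every wild-type array. The mean was 47.3% of wild type, and the log2 fold change of −1.08 (SE 0.30, 95% interval −1.74 to −0.43) narrowly missed the threshold (adjusted p = 0.0529). It passed in 5 of 18 alternative fits, among them that without knockout-labelled array 2 (−1.35, adjusted p = 0.0113), quantile normalization (0.0497) and leaving out the dimmest tertile of rows (0.0393), with adjusted p 0.00186 to 0.262 over the 18. Sult1a1, the phenol sulfotransferase, was at 0.12 (0.561) and Sult4a1, a row among the dimmest tertile, at 0.20 (0.189).

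Sult1d1 and Sult1c2, dim rows chosen after their values were seen, were highest in wild-type array 1, as Gstm5 and Gstm6 were. Sult1c2 read 4.07, 3.88, 4.01 and 3.92 log2 in the knockout-labelled arrays, against 4.74, 4.47, 3.88 and 3.81 log2 in wild type. Sult1d1 read 3.14, 3.06, 3.36 and 3.05 log2 in the knockout-labelled arrays, against 3.99, 3.47, 3.14 and 3.24 log2 in wild type. Neither group difference passed (adjusted p = 0.464 and 0.300).

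**Figure D4:**
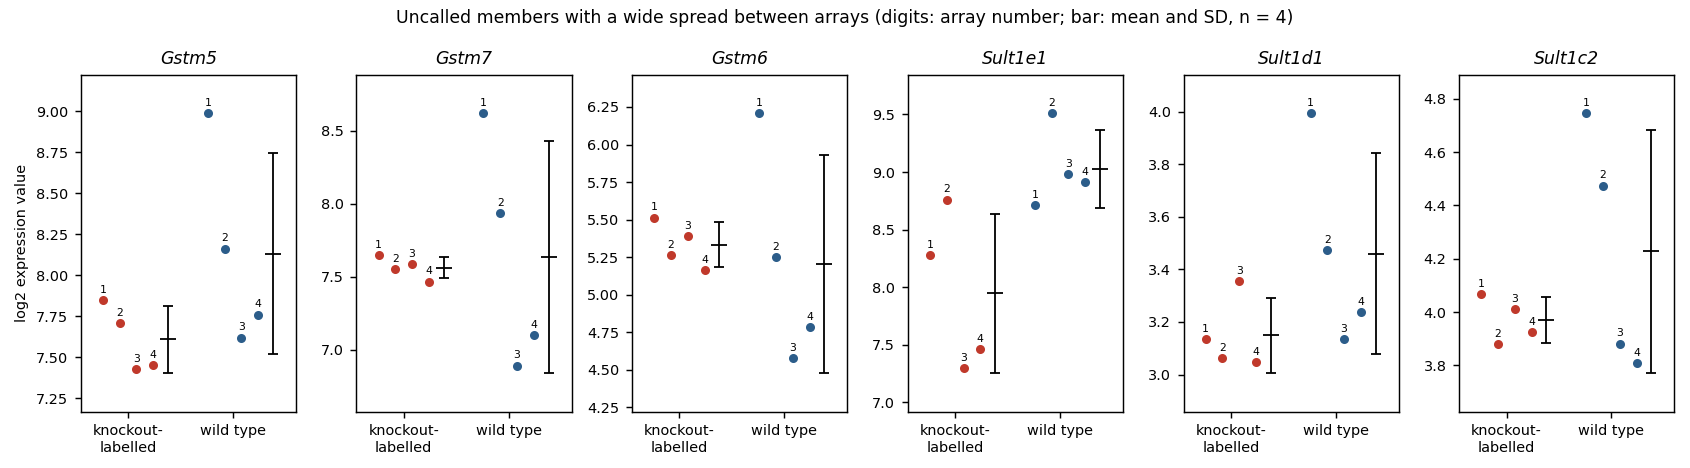
Log2 expression value (y axis) in every array for Gstm5, Gstm7, Gstm6, Sult1e1, Sult1d1 and Sult1c2, which were not called, with knockout-labelled arrays in red on the left and wild-type arrays in blue on the right; digits give the array number and the black bar the mean and SD (n = 4). Wild-type array 1 is the highest for each of them but Sult1e1, for which knockout-labelled arrays 3 and 4 lie lowest, at 7.29 and 7.46.

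Conjugating and reducing enzymes outside these families had 2 increases and 4 decreases among 37 measured genes. That is 16.2% called, against 7.4% of all rows tested and 10.7% above the dimmest tertile. The paraoxonase gene Pon1 was lower by a log2 fold change of −0.93 (SE 0.17, limma adjusted p = 0.00988), and the microsomal glutathione S-transferase genes Mgst3 (−0.52, SE 0.10, 0.0125) and Mgst1 (−0.41, SE 0.087, 0.0178) and the aldehyde oxidase gene Aox3 (−0.27, SE 0.070, 0.0440) were lower as well. Hnmt, which methylates histamine, and the aldo-keto reductase gene Akr1c14 were higher by 0.37 (SE 0.081, 0.0205) and 0.42 (SE 0.11, 0.0475). Of 18 alternative fits, the call was lost in 10 for Akr1c14 (adjusted p 0.0105 to 0.253), among them every one that leaves out 1 array except that without knockout-labelled array 2, and in 9 for Aox3 (0.0177 to 0.270), with the same exception. It was lost in 4 each for Hnmt (0.00917 to 0.117), among them those without knockout-labelled array 4 or wild-type array 1 or 2, and Mgst1 (0.00499 to 0.124), among them those without knockout-labelled array 4 or wild-type array 2 or 4. Pon1 (0.0835) and Mgst3 (0.0559) lost it with knockout-labelled arrays 1 and 2 only. Of 11 measured genes that supply glutathione, activated sulfate, glucuronate and electrons to these enzymes, 0 passed (limma; smallest adjusted p 0.0658, for Ugdh).

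Among 18 measured regulators of detoxification genes 2 were higher and 2 lower (22.2% called, against 7.4% of all rows tested and 10.7% above the dimmest tertile). The D-box repressor gene Nfil3 and the D-box activator gene Hlf were higher by log2 fold changes of 1.48 (SE 0.17, limma adjusted p = 0.000690) and 0.51 (SE 0.079, 0.00411). The fatty acid receptor gene Ppara and the adipogenic factor gene Cebpa were lower, at −0.39 (SE 0.064, 0.00563) and −0.37 (SE 0.058, 0.00454). Ppara lost its call with knockout-labelled arrays 1 and 2 only (0.0503).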

How the data were processed

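The deposited values are log2 expression values made by the authors, 1 per row and array of an Affymetrix whole-transcript mouse array. Per the labels' protocols, RNA was extracted with TRIzol and labelled with biotin; the submitters' processing notes name affy, and background correction, normalization and summarization are not given in the sources used here. The log2 scale was read from the values. Of 23346 rows, 20748 had 1 symbol and were tested. Limma 3.58.1 in R 4.3.3 (lmFit, eBayes, 2 groups of 4 arrays, no filter, two-sided) gave log2 fold changes with standard errors, and Benjamini-Hochberg adjustment ran over all tested rows; calls have an adjusted p under 0.05. The fit was tried on simulated data with independent normal noise in each row. Such data lack shifts that many rows of an array share, so they cannot show how the fit handles these. The number of arrays limits the precision. Members, lists and alternatives were chosen with earlier results of these data known. Called members, Tst, Mpst, Ephx1 and Ephx2 were named, as were each family's brightest gene and its 2 uncalled genes with the smallest p. Further uncalled genes named in ranges or by value were chosen after their values were seen. Of pathway lists, up to 6 called genes were named. Gene order came from the RefSeq table of GRCm38.p6. No label says that a number pairs arrays, so numbers were not taken as pairs. Deviations of same-numbered arrays from their group means had correlations of −0.07 to 0.13, which cannot exclude pairing.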

Additional observations from a re-analysis of the deposited data

Results flagged for a closer look

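In 3 of the 78 groups of 4 arrays checked for the 39 genes named by rule, 1 array stood apart from the other 3, beyond Dixon's 95% critical ratio of gap to range for 4 values. Chance gives about 1 such group in 20. Knockout-labelled array 3 was low for Gstt3, at 6.71 log2 against 7.09 to 7.16 in the other knockout-labelled arrays (ratio 0.848). For Ephx2, wild-type array 4 was high, at 9.63 log2 against 9.22 to 9.26 in the other wild-type arrays (ratio 0.886). For Gstz1, wild-type array 1 was low, at 10.38 log2 against 10.64 to 10.69 in the others (ratio 0.846).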

How the results depend on the processing

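The counts, the median and the 39 genes named by rule were recomputed under other settings, 18 for a gene (17 for Ces2e, Ces2f, Fmo4, Gstp3 and Sult4a1), 8 of which leave out 1 array. The called genes of the pathway lists and Gstm7, Sult1d1 and Sult1c2 were added to these after seeing the data; other uncalled members, marker levels and motif shares were not recomputed. Of the 15 called members, 7 kept the call in every alternative (Tst, Ces1f, Gstt3, Ephx1, Gstm1, Gstm3 and Gstm4), 8 lost it in at least 1 and 0 changed sign. The median log2 fold change over members (−0.0408) was −0.0226 with median centring, −0.1014 without the dimmest tertile of rows, −0.0216 with knockout-labelled arrays 1 and 2 only, −0.0665 with knockout-labelled arrays 3 and 4 only, and −0.0742 to −0.0288 without single arrays. At 1.5-fold or more, 3 members were called (0 higher, 3 lower) and 326 rows. Lowered members numbered 4 with knockout-labelled arrays 1 and 2 only, 14 with arrays 3 and 4 only, and 5 to 9 without single arrays, 5 without knockout-labelled array 4. The genes that gained a call with arrays 3 and 4 only were Adh1, Aldh2, Aldh6a1, Gstp1, Gstt1, Gstt2 and Sult1e1, all lower. Rows called numbered 701 with knockout-labelled arrays 1 and 2 only, 2552 at an adjusted p under 0.10, and 913 to 1418 without single arrays, the fewest without knockout-labelled array 4 (913), wild-type array 3 (972) and wild-type array 4 (1004). With knockout-labelled arrays 1 and 2 only, the log2 fold change turned positive for Adh5 (0.0017), Ces1d (0.0267), Fmo5 (0.0877) and Gsta3 (0.0682). With arrays 3 and 4 only, it turned negative for Gsta4 (−0.0825) and Gstp3 (−0.0463), and quantile normalization gave −0.0016 for Gsta4. Without single arrays, ranges crossing 0 were −0.1358 to 0.0075 for Fmo5, −0.1087 to 0.0186 for Gsta3, −0.0587 to 0.087 for Gsta4, −0.0803 to 0.4628 for Gstm6 and −0.3235 to 0.2528 for Gstm7. The cause was not tested. With the replicate number as a block, 1105 rows and 13 members were called, 12 of them also without it. Sult1e1 passed in that fit (limma adjusted p = 0.0209). Same-number correlations were −0.0342, 0.1337, −0.0015 and −0.0674. With 4 arrays per group these cannot exclude that the numbers pair the arrays. The number of arrays limits the precision.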

Other observations

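Rows that list several gene symbols were left out of the member set, and 8 of them hold a symbol of these families. None passed. The rows of Gstp1 and Gstp2 together had log2 fold changes of −0.11 (limma adjusted p = 0.613) and −0.15 (0.127), and the row of Aldh3b2 and Aldh3b3 together had −0.28 (0.105). Second rows of member genes gave −0.22 for Aldh3b3 (limma adjusted p = 0.175) and 0.08 for Ces5a (0.438).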
